A study of Mus musculus with 4 samples.

Results

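The genes described here code for the receptor of leukaemia inhibitory factor (LIF), the signalling proteins behind it and its early transcriptional targets in mouse embryonic stem (ES) cells. They were chosen by gene name, and every probe carrying one of 10 names was read on each array: Lifr, Il6st, Jak1, Stat3, Socs3, Pim1, Pim3, Gbx2, Bcl3 and Junb. These 10 genes had 13 probes, out of 36039 genes named on the array, and all 13 probes were well above local background on all 4 arrays. Lifr had 3 probes, Stat3 had 2 and the other 8 genes had 1 each.

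LIF binds a receptor of a specific chain, LIFR, and a chain shared with other cytokines of the interleukin-6 family, gp130. Janus kinases bound to these chains phosphorylate them and the transcription factor STAT3, which then moves to the nucleus and switches on its targets, one of which, Socs3, shuts the receptor down again. In mouse ES cells this signal holds the cells in self-renewal, and removing LIF lets them go toward differentiation.

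The cells were of E14Tg2A, an established mouse ES line of the 129/Ola strain. The ES array held untreated cells at day 0, grown in medium with serum and LIF. The ELA array held untreated cells after 2 days in a chemically defined minimal medium without serum or LIF, in which they form floating epiblast-like aggregates. The AZA array and the CHQ array held such day 2 aggregates formed in the presence of 50 nM 5-azacytidine, an inhibitor of DNA methyltransferases, or of 100 µM 5-carboxy-8-hydroxyquinoline, an inhibitor of histone lysine demethylases. LIF was therefore absent in ELA, AZA and CHQ alike, and the step from ES to ELA also changed serum, medium and cell attachment. The series asked what blocking chromatin regulators does to the priming of these cells for differentiation.

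Each group was 1 array made from RNA pooled over 3 experiments, so no difference below has a replicate check and no p-value is given. The SD of repeated spots within an array was 0.15 on the log2 scale, giving 0.21 for a difference of 2 spots; it covers reading error alone, and differences under 2 times this (0.42) were read as not exceeding it. A gene was counted as changed when it moved by at least 1 log2 unit (2-fold), its mean over both arrays was at least 7.5 and at least 1 of them read it well above background. ES and ELA lay on one slide and AZA and CHQ on the other, so ELA minus ES and CHQ minus AZA were read within a slide. For AZA or CHQ against ELA or ES, slide and treatment cannot be told apart, and local background had medians of 59 (ES) and 77 (ELA) intensity units on one and 14 (AZA) and 13 (CHQ) on the other. Of all gene spots, 55.1% to 69.2% were well above background and none was saturated. The stem cell markers Pou5f1, Sox2, Nanog, Zfp42 and Utf1 were all well above background on all 4 arrays.

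A STAT binding motif was looked for in the promoter of each gene because STAT3 acts by binding DNA. RefSeq promoters of build GRCm38.p6 (250 bases before to 50 after each start) were matched for all 10 genes, by symbol, through 12 promoters. The motif TTCNNNGAA, a palindrome that reads the same on either strand, occurred in 8.3% of all 32851 promoters of this table and in 1 of the 12, that of Socs3. The stricter form TTCCNGGAA, contained in the first, occurred in 1.15% of all promoters and in none of the 12. The Socs3 match is shown with 10 bases on either side, the motif in capitals, beside matches from 2 genes of the same pathway whose levels are given below, Irf1 and Cish. Gab1 and a second place in the Cish promoter also matched and are not shown. Matches of the other pathway genes were not all kept, so further genes of the pathway may carry either form.
Socs3: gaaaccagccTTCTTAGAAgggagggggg
Irf1: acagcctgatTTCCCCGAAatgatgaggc
Cish: ccgcccagttTTCCTGGAAagttcttgga
The Socs3 window lies at chr11:117969502-117969530 on the minus strand, and its motif begins at base -154, counted from the start. The Irf1 window lies at chr11:53769914-53769942 on the plus strand, its motif beginning at base -90, and the Cish window at chr9:107296649-107296677 on the plus strand, its motif beginning at base 1. A match is a description of letters in this window and says nothing of binding, and the other 9 genes may carry the motif outside it.

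Without LIF, 7 of the 10 genes were lower in ELA than in ES by 2-fold or more and none was higher. Over all 18968 genes tested in this comparison, 5.6% were lower and 4.46% higher by the same rule. The median difference of the 10 genes was -1.31 log2 units against -0.02 over all genes. Bcl3 and Socs3 fell furthest, and Jak1 alone had a difference above 0. With the compounds, still without LIF, in AZA 4 of the 9 genes that could be called were higher than in ELA and 1 was lower, and in CHQ 4 of 10 were higher and none lower. Against ELA the rule called 14.3% of all genes higher and 11.4% lower in AZA, and 14.8% higher and 11.9% lower in CHQ. The 10 genes had a median difference from ELA of 0.83 in AZA and 0.49 in CHQ, against -0.07 and -0.09 over all genes. These comparisons share the ELA array, so any error in it enters each of them.

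**Figure D1:**
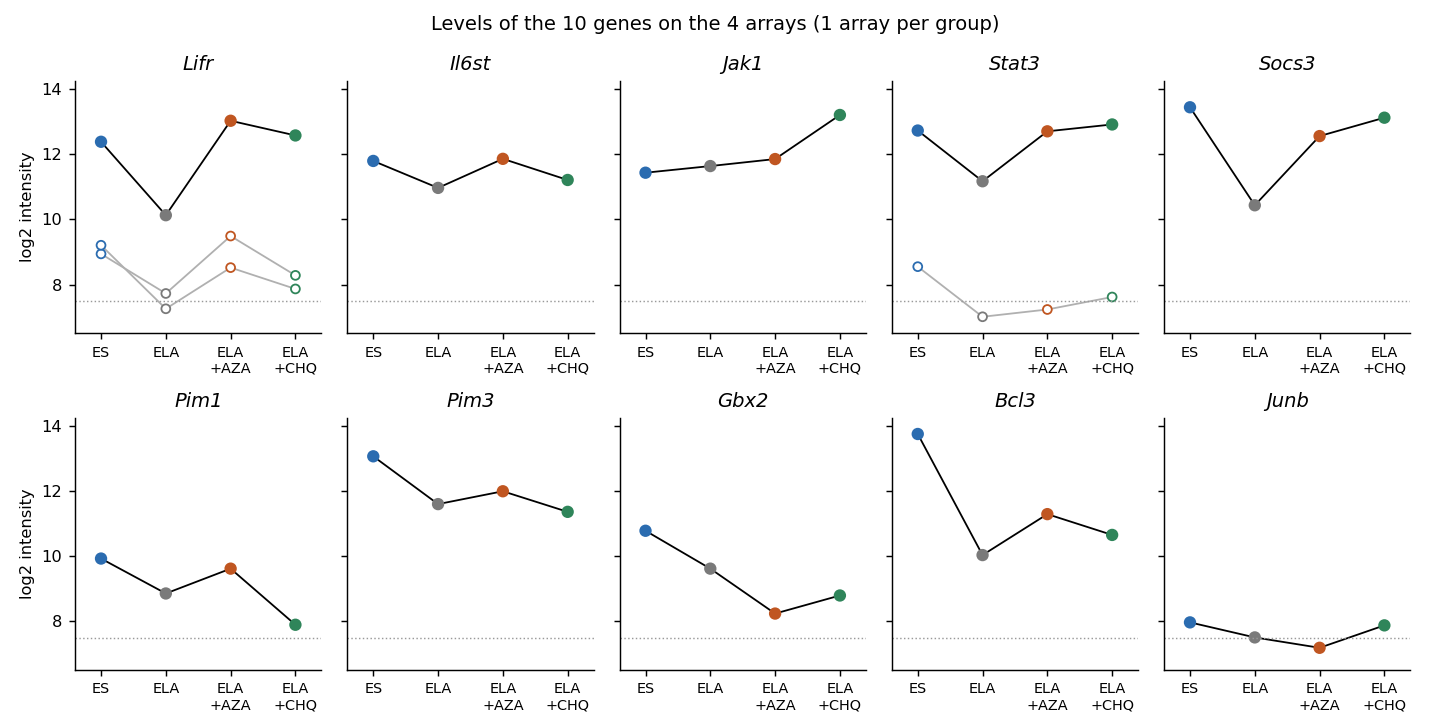
Normalized log2 intensity (vertical axis) of each gene on the ES, ELA, AZA and CHQ arrays, 1 array per group. Filled points are the brightest probe of a gene, open points its other probes, bars the SD of repeated spots (0.15, mostly hidden by the points), and the dotted line the level minimum of 7.5. The brightest probes of Lifr, Il6st, Stat3, Socs3 and Bcl3 are lowest in ELA, while Gbx2 is lowest in AZA and Jak1 is highest in CHQ.

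Lifr codes for the chain that makes the receptor specific for LIF. Its brightest probe (chr15:7147319-7147378 in build mm9, as are all probe positions below) read 12.38 in ES, 10.13 in ELA, 13.03 in AZA and 12.58 in CHQ, in log2 intensity. ELA was the low array, 4.76-fold below ES, 7.45-fold below AZA and 5.45-fold below CHQ. CHQ minus ES was 0.19, within the reading error, and was -0.70 with spike-in scaling, where the median of all genes was -0.998. A second probe on the same transcript variant (chr15:7141150-7141209) read 8.95 in ES, 7.73 in ELA, 9.49 in AZA and 8.29 in CHQ. The remaining probe, designed on transcript variant 2 (chr15:7135072-7135131), read 9.21 in ES, 7.26 in ELA, 8.52 in AZA and 7.87 in CHQ. All 3 probes were lowest in ELA, with ELA minus ES differences of -2.25, -1.21 and -1.95. They differed in size under the compounds: AZA minus ELA was 2.90, 1.76 and 1.26, and CHQ minus ELA was 2.45, 0.56 and 0.61, so the change with CHQ reached 2-fold on the brightest probe alone.

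Il6st codes for gp130, the chain that LIF shares with interleukin-6 and its relatives. Its probe (chr13:113296586-113296645) read 11.80 in ES, 10.97 in ELA, 11.86 in AZA and 11.21 in CHQ. ELA was again the low array, by 0.83 against ES and 0.89 against AZA, neither of which reached 2-fold. The CHQ level lay 0.24 above ELA, within the reading error as processed here, and 0.56 above it with median scaling. AZA minus ES was 0.06, and -0.62 with spike-in scaling, where the median of all genes was -0.845.

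Jak1 codes for a kinase that sits on these receptor chains and phosphorylates STAT3. Its probe (chr4:100825094-100825153) read 11.44 in ES, 11.64 in ELA, 11.85 in AZA and 13.21 in CHQ. CHQ stood apart from the other three arrays, 2.96-fold above ELA and, within the same slide, 2.55-fold above AZA. The ELA minus ES difference of 0.20 was within the reading error and turned to -0.04 with median scaling and -0.41 with spike-in scaling. The median of all genes was -0.24 and -0.60 under those scalings. Within that slide Jak1 was the 1 gene of the 10 counted as higher in CHQ than in AZA, where 5.56% of all genes were higher and 4.83% lower.

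Stat3 codes for the transcription factor that carries the LIF signal to the nucleus. Its bright probe (chr11:100749598-100749657) was printed in 10 spots on each array, and their means were 12.73 in ES, 11.17 in ELA, 12.70 in AZA and 12.91 in CHQ. The spots ranged from 12.53 to 12.94 in ES, from 11.03 to 11.41 in ELA, from 12.54 to 12.89 in AZA and from 12.72 to 13.10 in CHQ. The ELA spots thus did not overlap those of any other array, while the ranges of ES, AZA and CHQ overlapped. Stat3 was 2.94-fold lower in ELA than in ES, 2.89-fold higher in AZA than in ELA and 3.34-fold higher in CHQ than in ELA. The second probe (chr11:100759946-100760005) was dim, at 8.55 in ES, 7.02 in ELA, 7.24 in AZA and 7.62 in CHQ. It repeated the ELA minus ES difference, at -1.54 against -1.56, but not the size of the others: AZA minus ELA was 0.22 and CHQ minus ELA 0.61. With the mean of both probes the AZA difference of Stat3 was 0.88, under 2-fold.

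**Figure D2:**
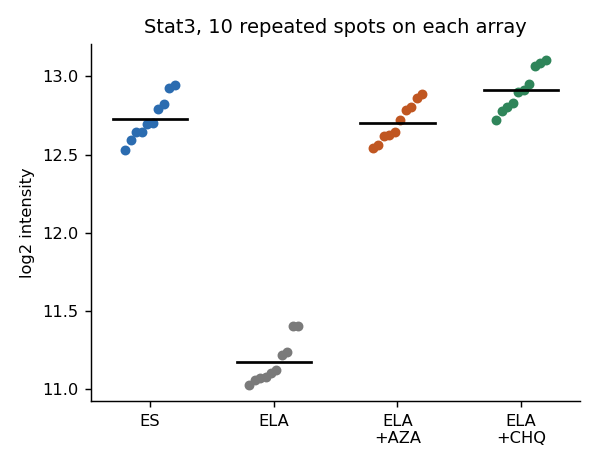
Log2 intensity (vertical axis) of the 10 repeated spots of the bright Stat3 probe on the ES, ELA, AZA and CHQ arrays, with the mean as a line. Spots are repeats within 1 array and not replicates of a condition. All ELA spots, at 11.03 to 11.41, lie below the lowest spot of the other arrays, at 12.53.

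Among the targets, Socs3, the feedback inhibitor that binds gp130 and stops further signalling, read 13.44 in ES, 10.44 in ELA, 12.56 in AZA and 13.12 in CHQ (chr11:117827480-117827539). Before any correction its spot held 13174 intensity units in ES, 1263 in ELA, 5876 in AZA and 8504 in CHQ. ELA was the low array and ES the high one. CHQ minus ES was -0.32 as processed here, within the reading error, but the difference ranged from -1.35 to -0.32 over the 9 ways of processing. The fall from ES to ELA was 8.03-fold, and the level was 4.35-fold higher in AZA and 6.43-fold higher in CHQ than in ELA.

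Bcl3, a nuclear partner of NF-kappaB and a STAT3 target in ES cells, had the largest fall of the 10 genes. Its probe (chr7:20393826-20393885) read 13.75 in ES, 10.03 in ELA, 11.29 in AZA and 10.65 in CHQ. ES stood far above the other three arrays, 13.1-fold above ELA, 5.49-fold above AZA and 8.55-fold above CHQ. AZA was 2.39-fold higher than ELA, and CHQ lay 0.62 above ELA, short of 2-fold. All 4 levels were further apart than the reading error.

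Pim1 and Pim3 code for serine/threonine kinases that favour survival and growth. Pim1 (chr17:29630740-29630799) read 9.93 in ES, 8.86 in ELA, 9.62 in AZA and 7.90 in CHQ. It was 2.10-fold lower in ELA than in ES, a difference that came to -0.99 under one of the other processings. From ELA it moved by 0.76 in AZA and by -0.96 in CHQ, neither of them 2-fold as processed here, though the CHQ fall counted as changed in 5 of 9 ways of processing (down to -1.23). Within their slide CHQ was 3.30-fold lower than AZA. Pim3 (chr15:88695626-88695685) read 13.06 in ES, 11.60 in ELA, 11.99 in AZA and 11.36 in CHQ. ES was the high array, 2.76-fold above ELA, and AZA and CHQ each lay within the reading error of ELA as processed here. The AZA difference of 0.39 was 0.74 and the CHQ difference of -0.24 was 0.09 with median scaling.

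Gbx2, a homeobox transcription factor, read 10.78 in ES, 9.62 in ELA, 8.24 in AZA and 8.80 in CHQ (chr1:91825013-91825072). The levels fell in the order ES, ELA, CHQ and AZA, and all neighbours in that order differed by more than the reading error. Gbx2 was 2.24-fold lower in ELA than in ES and, alone of the 10 genes, lower by 2-fold or more in AZA than in ELA, at 2.60-fold. Its CHQ minus ELA difference was -0.82.

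Junb, which codes for a subunit of the AP-1 transcription factor, was dim on every array. Its probe (chr8:87501881-87501940) read 7.97 in ES, 7.51 in ELA, 7.19 in AZA and 7.88 in CHQ. The mean of ELA and AZA was under the level minimum, so it could not be called in that comparison. Its ELA minus ES difference was -0.46, and its differences of AZA and CHQ from ELA, -0.32 and 0.37, were under 0.42. Neither was stable to the processing: the AZA difference ranged from -0.82 to -0.30 over the 9 ways of processing, and the CHQ difference turned to -0.03 with spike-in scaling.

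**Figure D3:**
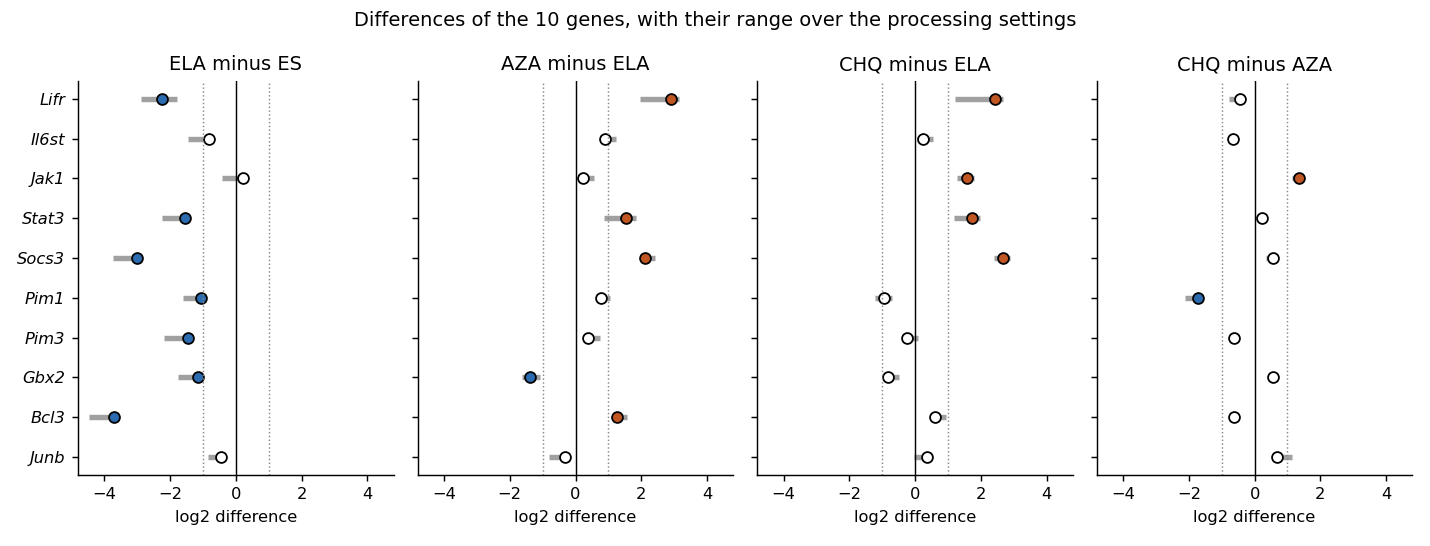
Log2 difference (horizontal axis) of each gene in 4 comparisons, ELA minus ES, each compound minus ELA, and CHQ minus AZA. Points are the reported values, filled where the gene counted as changed (orange higher, blue lower), grey bars the range over 9 ways of processing, and dotted lines 2-fold. Of the 10 genes, 7 are filled on the low side for ELA minus ES, and Jak1 and Pim1 are the 2 filled for CHQ minus AZA.

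Set against ES in place of ELA, none of the 10 genes was counted as higher and 3 (Pim3, Gbx2 and Bcl3) as lower in AZA, where 11.3% of all genes were higher and 8.29% lower. In CHQ, Jak1 was higher and Pim1, Pim3, Gbx2 and Bcl3 were lower, where 12.7% of all genes were higher and 10.3% lower. The Jak1 difference in CHQ, 1.77 here, was 0.88 with spike-in scaling and then no longer 2-fold. The bright Stat3 probe differed from ES by -0.02 in AZA and 0.19 in CHQ, and by -0.81 and -0.76 with spike-in scaling. The dim Stat3 probe was below ES by 2.49-fold in AZA and by 1.91-fold in CHQ. These comparisons depend on how arrays are scaled: with spike-in scaling all 10 genes were below ES in AZA and 9 of 10 in CHQ. The median of all genes in that scaling was itself -0.845 for AZA minus ES and -0.998 for CHQ minus ES. In 5 of the 10 genes (Lifr, Il6st, Stat3, Socs3 and Bcl3) ELA was the lowest of the 4 arrays, a pattern held by 27.1% of all 19179 genes in which it could be read. ES was the highest array in 6 (Socs3, Pim1, Pim3, Gbx2, Bcl3 and Junb), as in 26.1% of those genes.

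The shapes of the patterns were compared by the Euclidean distance between log2 levels centred on each gene's own mean over the 4 arrays. Among the 10 genes the closest pairs were Pim1 and Pim3 at 0.82 log2 units, Il6st and Pim3 at 0.93 and Lifr and Stat3 at 0.97. Of 12967 genes searched, those most like Socs3 included Gpat3 at 0.41, Tet2 at 0.51, Aoah at 0.56 and Klf5 at 0.59. Tet2, an enzyme that oxidizes methylated cytosine, read 12.07 in ES, 9.05 in ELA, 11.68 in AZA and 11.55 in CHQ. With 4 points to a pattern, such likeness describes these arrays and no more.

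The rest of the pathway was read through 49 other genes in 7 lists, named below by their largest changes. Of these, 3 were higher and 11 lower in ELA than in ES, 10 higher and 4 lower in AZA than in ELA, and 15 higher and 4 lower in CHQ than in ELA. Over all genes tested the same rule gave, in that order, 4.46% higher and 5.6% lower, 14.3% and 11.4%, and 14.8% and 11.9%, so the 10 and 4 of 49 with AZA were not far from these shares. Their medians were -0.19, 0.25 and 0.35, smaller than those of the 10 genes in the first and second comparison and closer to them in the third. The list of 10 other STAT3 targets moved most: 5 fell and 2 rose without LIF, 6 rose and 1 fell with AZA, and 8 rose and 1 fell with CHQ, with medians of -1.11, 1.44 and 2.13. These counts read the brightest probe of each gene. Bcl2l1, named for its probes after its values were seen, counted as higher in CHQ than in ELA at 1.23, while its other probe differed by -0.44. The other probes of Tfcp2l1, Mcl1 and Irf1 kept the direction in CHQ.

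Among those targets, Tfcp2l1, a transcription factor of the self-renewal network, read 12.51 in ES, 8.81 in ELA, 12.99 in AZA and 11.67 in CHQ on its brightest probe. Klf4, a Krüppel-like factor of the same network, read 12.54 in ES, 9.50 in ELA, 13.59 in AZA and 13.00 in CHQ. Both were lowest in ELA, and the other probe of Tfcp2l1 differed by -3.53 from ES to ELA, by 2.55 from ELA to AZA and by 1.30 from ELA to CHQ. Pim2, the remaining kinase of the Pim family, ran the other way, at 12.92 in ES, 14.62 in ELA, 11.24 in AZA and 11.98 in CHQ. Irf1, the interferon regulatory factor whose promoter motif is printed above, read 14.32 in ES, 12.90 in ELA, 14.26 in AZA and 14.74 in CHQ on its brightest probe, while its other probe differed by -0.58, 0.25 and 0.29 in the 3 comparisons. Irf1 was named for its motif, after its values were seen.

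**Figure D4:**
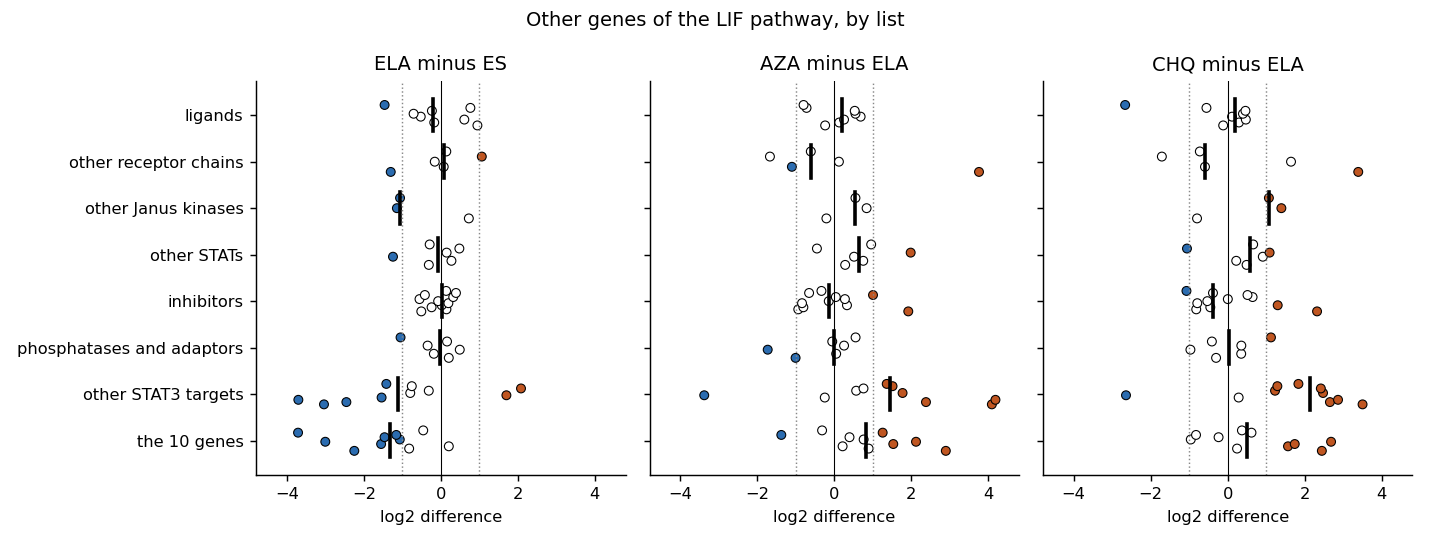
Log2 difference (horizontal axis) of each of 49 other pathway genes by list, and of the 10 genes described here in the bottom row, for ELA minus ES and for each compound minus ELA. Each point is 1 gene, filled where it counted as changed (orange higher, blue lower), vertical bars are medians and dotted lines are 2-fold. The other STAT3 targets have medians of -1.11, 1.44 and 2.13, while the inhibitors have none filled for ELA minus ES.

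Lif, the ligand itself, named after its values were seen, was dim at 6.90 in ES, 7.84 in ELA, 7.60 in AZA and 7.72 in CHQ, and its mean was under the level minimum for ELA minus ES. Of 5 other receptor chains, Il6ra, which binds interleukin-6 and pairs with gp130, read 8.46 in ES, 7.16 in ELA, 10.92 in AZA and 10.55 in CHQ, the largest rise of this list with either compound. Cntfr, the anchored chain for ciliary neurotrophic factor, rose by 1.06 from ES to ELA against 0.38 on its other probe. It differed from ELA by -1.67 in AZA and -1.71 in CHQ (-0.89 and -0.80 on its other probe). Neither counted as changed, because the mean level was under the level minimum. Il11ra1, the interleukin-11 chain, fell by 1.10 with AZA.

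Of 3 other Janus kinases, Jak3 and Tyk2 were lower in ELA than in ES, by -1.15 and -1.06, and higher in CHQ than in ELA, by 1.39 and 1.07. Their AZA minus ELA differences were 0.84 and 0.55, while the other probe of Jak3 differed by 1.04 in AZA and 2.11 in CHQ. Of 6 other STATs, Stat4 fell by 1.25 from ES to ELA. Stat5a, which like STAT3 answers cytokines, read 8.40 in ES, 8.55 in ELA, 10.53 in AZA and 9.63 in CHQ, and Stat5b fell by 1.06 with CHQ against -0.88 on its other probe.

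Of 11 inhibitors of the pathway, none changed from ES to ELA other than Socs3, which is counted among the 10 genes. Socs1, a relative of Socs3 that blocks Janus kinases, read 9.92 in ES, 9.41 in ELA, 11.33 in AZA and 11.73 in CHQ. It was higher with either compound than in ES or ELA. Socs5 rose by 1.30 and Pias4, a SUMO ligase, fell by 1.07 with CHQ. Cish, a further cytokine-induced inhibitor and a carrier of the strict motif, read 10.27 in ES, 9.72 in ELA, 9.99 in AZA and 9.72 in CHQ, none of these 2-fold apart. Of 6 phosphatases and adaptors, Gab1, a docking protein for growth factor signalling, fell by 1.05 from ES to ELA and rose by 1.12 with CHQ. The phosphatase gene Ptpn1 fell by 1.73 with AZA, its other probe differing by -0.95, and the phosphatase gene Ptpn11 fell by 1.01.

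Cell state markers moved between the same arrays. The summed intensity of the 5 stem cell markers was 206341 in ES, 117562 in ELA, 223306 in AZA and 134042 in CHQ. Zfp42, a marker of undifferentiated ES cells, read 15.82 in ES, 11.99 in ELA, 15.74 in AZA and 15.06 in CHQ. Nanog, a pluripotency factor, read 15.05 in ES, 12.53 in ELA, 15.41 in AZA and 12.55 in CHQ on its brightest probe, but its other probe differed by 0.23 from ES to ELA, by -1.55 from ELA to AZA and by -1.02 from ELA to CHQ, so its direction rests on the probe. Pou5f1, Sox2 and Utf1 moved by less than 2-fold in these 3 comparisons. The sum over 3 markers of the primed epiblast (Fgf5, Pou3f1 and Otx2, all well above background on every array) was 64467 in ES, 120509 in ELA, 92111 in AZA and 104760 in CHQ. Its members differed: from ELA to AZA Fgf5 differed by -2.54, Pou3f1 by -1.56 and Otx2 by 0.33, and from ES to ELA they differed by 2.87, 0.83 and 0.58.

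Of 5 primitive endoderm markers, 3 were well above background in ES and in ELA and all 5 in AZA and in CHQ, with sums of 638, 1090, 915 and 2210. They did not move as one. Gata6 and Sox17 were not well above background in ES or ELA, and read 8.06 and 7.76 in AZA and 9.89 and 9.51 in CHQ. On their brightest probes, Foxa2 and Dab2 were lower than in ELA with either compound, with differences of -1.81 in AZA and -1.01 in CHQ for Foxa2 and of -1.47 and -1.34 for Dab2, and Gata4 differed from ELA by 0.24 and 0.27. The other probe of Foxa2 differed by -0.70 and -0.38, and that of Sox17 by 0.21 and 1.37. Of 3 neural markers, Nes was lower than in ELA, with differences of -1.67 in AZA and -1.25 in CHQ, and the list summed to 7060 in ES, 12352 in ELA, 4038 in AZA and 5284 in CHQ. Nes made up most of that sum on every array. The sum over 4 fibroblast markers was 5330 in ES, 13469 in ELA, 7850 in AZA and 3148 in CHQ, led by Thy1 at 12.08, 13.59, 12.78 and 11.27 in log2 intensity. From ES to ELA, Col1a2 differed by 0.84, Col1a1 by -0.90 and Twist2 by -0.13. Col1a2 was lower than in ELA with either compound, with a difference of -1.87 in AZA and -1.996 in CHQ. Col1a1 went the other way, 1.30 above ELA in AZA and 0.79 above it in CHQ, and Twist2 differed by -0.89 and -0.40. Of 4 trophoblast markers, 3, 1, 2 and 3 were well above background in ES, ELA, AZA and CHQ, with sums of 932, 655, 1116 and 1459, and Krt7 was higher by 1.31 in CHQ than in ELA. Of 3 mesoderm markers 2, 2, 2 and 3 were well above background, with sums of 8275, 9566, 5040 and 4718. The brightest probe of Kdr made up nearly all of these sums. Kdr fell by 1.05 from ELA to CHQ on that probe while its other probe differed by 0.82, the opposite way. The part of these cell states in the results above was not tested, and in pooled RNA fewer cells of a type and less RNA per cell cannot be told apart.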

How the data were processed

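Gene expression was measured on single-colour Agilent mouse arrays, 1 per group. The authors scanned them and deposited the intensity of each spot from Agilent Feature Extraction. The deposited log2 value table was, per the file headers and labels, background-corrected and quantile-normalized by the authors with limma, and it was used as an alternative. Here the mean spot intensity was corrected by normexp (offset 50) against the local median background and quantile-normalized over the 4 arrays in limma 3.58.1 (R 4.3.3). Control spots and outlier spots were left out after normalization, and 559 of 55681 gene probes had no usable spot on at least 1 array and were dropped. Repeated spots were averaged, and a gene was given by its brightest probe. Names came from the array's design, updated by RefSeq accession for 26576 probes, which added no probe to the 10 genes. The 10 genes and all lists were chosen with earlier results of these data known. Beyond the 10 genes, at most the 3 largest changes of a list were named, and some genes are not reported here. No count of reads exists for arrays, so precision is limited by the number of arrays. Alternatives were percentile, median and spike-in scaling, normexp without offset, no background correction, the deposited table, the mean of all probes, no filter on dim probes, 2 log2 units as the size and, chosen after seeing the data, median spot intensity. Probes were not placed in exons or UTRs, since no annotation of mm9 was used here.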

Additional observations from a re-analysis of the deposited data

Results flagged for a closer look

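Pim1 moved in opposite directions with the 2 compounds, by 0.76 from ELA to AZA and by -0.96 from ELA to CHQ. The CHQ minus AZA difference was -1.72, with 1 array on each side, and it was not tested.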

How the results depend on the processing

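The values were computed in 9 ways, the reported one included. For the genes counted as changed, every direction held in all of them, over all 6 comparisons. The genes counted as changed in some ways and not in others were Jak1, Socs3, Il6st and Junb for AZA or CHQ against ES, and Il6st, Pim1 and Stat3 in the other 4 comparisons. The number of genes lower in ELA than in ES, 7 as reported, was 8 with median or spike-in scaling and 6 with median spot intensity, and the number higher in AZA than in ELA, 4 as reported, was 6 with median scaling and 3 with the mean of all probes. The number of genes lower in CHQ than in ELA was 1 (Pim1) in place of 0 with 75th percentile scaling, normexp without offset, the authors' value table, spike-in scaling and median spot intensity. With a size of 2 log2 units, 3 genes were lower in ELA than in ES, 2 higher and 0 lower in AZA than in ELA, 2 higher in CHQ than in ELA, 0 higher and 0 lower in CHQ than in AZA, and 0 higher and 2 lower in CHQ than in ES. The median of the 10 genes for ELA minus ES was -1.60 with median scaling and -1.97 with spike-in scaling, where all genes shifted by -0.24 and -0.60. For AZA minus ELA it was 1.14 with median scaling, and for CHQ minus ELA 0.75 with median scaling and 0.26 with spike-in scaling, where all genes shifted by 0.13, 0.10 and -0.39. Scaling to the 75th percentile shifted all genes by -0.20 and -0.26 in the same 2 comparisons. With spike-in scaling 5 genes were lower in AZA than in ES and 0 higher in CHQ than in ES, with medians of -1.23 and -1.37, where all genes shifted by -0.845 and -0.998. Scaling to the 75th percentile gave a median of -0.70 for CHQ minus ES. No paired analysis was possible because each group has 1 array, and for the same reason no array could be left out and no slide could enter as a block. Signal over background limits Junb and the dim probes of Stat3 and Lifr.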

Other observations

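The mean pattern of the 10 genes, centred on each gene, was 0.75 in ES, -0.78 in ELA, 0.05 in AZA and -0.02 in CHQ. The genes nearest to it were Dpp4 at a distance of 0.15, Zc3h8 at 0.16, Zfp428 at 0.17, Ntn1 at 0.18 and Kcnk5 at 0.20. Dpp4, a cell surface peptidase, read 8.89 in ES, 7.37 in ELA, 8.31 in AZA and 8.04 in CHQ, and Ntn1, the guidance factor netrin-1, read 9.08, 7.42, 8.45 and 8.42 on the same arrays.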
